A study of Homo sapiens with 2 samples.

Results

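The 10 circadian clock genes examined here are CLOCK, BMAL1, PER1, PER2, PER3, CRY1, CRY2, NR1D1, NR1D2 and DBP. They were chosen by name as known clock genes, with no threshold on their values, although other results of these data were known by then. All 10 were found among the 12353 genes of the deposited table, BMAL1 under the Ensembl identifier of the gene formerly called ARNTL. Nascent RNA of BJ cells was sequenced after a nuclear run-on (GRO-seq) in 2 libraries, which the labels call biological replicates and the table calls a and b. BJ is an established human skin fibroblast line. The cells had no treatment and grew in medium with 10% serum, so both libraries belong to 1 group. In this assay, polymerases that were transcribing when the nuclei were isolated add a labelled nucleotide to their RNA, which is then captured and sequenced. The values are FPKM (fragments per kilobase, scaled to library size), and they report engaged polymerase per length, not mature mRNA. Which length was taken for each gene is not known here, and every comparison between genes below depends on it.

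The clock is a feedback loop of transcription. CLOCK and BMAL1 are helix-loop-helix proteins that bind together to E-box sequences and switch on the PER, CRY and NR1D genes. PER and CRY proteins then return to the nucleus and inhibit CLOCK and BMAL1. NR1D1 and NR1D2 (REV-ERB alpha and beta) are nuclear receptors that repress BMAL1 through ROR elements, which the activating ROR receptors also bind. DBP is an output of the loop and a factor that binds D-boxes, as found in PER promoters. Skin fibroblasts hold such clocks, which run out of step with each other unless a serum pulse, a glucocorticoid or another signal sets them together. The labels name no such signal, so each value below is an average over cells whose phase is not known, and few cells with much transcription cannot be told apart from many with little.

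The elements named above are shown because they are the kinds of site through which the activators and repressors act on each other. Annotated starts of the 10 genes gave 15 windows, each of 250 bases before to 50 bases after a start, from RefSeq on GRCh38.p14. The windows were searched on both strands for the E-box CACGTG, the related E′ box CACGTT, the D-box TTANGTAA, the ROR element (ANN followed by TAGGTCA) and the cyclic AMP response element (CRE) TGACGTCA. N stands for any base. The sequences below run 5′ to 3′ on the gene's own strand, and capitals mark the element. The E′ boxes of CRY1, CRY2 and NR1D1 and the D-box of NR1D2 matched on the opposite strand, so their capitals show the reverse complement of the pattern. No matches overlapped each other.
PER1 E-box: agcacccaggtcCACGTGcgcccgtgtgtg
NR1D2 E-box, the farther one: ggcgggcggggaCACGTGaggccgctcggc
NR1D2 E-box, the nearer one: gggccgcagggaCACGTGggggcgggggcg
PER2 E′ box: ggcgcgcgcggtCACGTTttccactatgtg
CLOCK E′ box: tcaccactcgggCACGTTtggagcagcgcc
CRY1 E′ box: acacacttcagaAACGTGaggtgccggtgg
CRY2 E′ box: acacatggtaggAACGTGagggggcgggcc
NR1D1 E′ box: gcgcaagagctcAACGTGccggctgttgga
PER2 D-box: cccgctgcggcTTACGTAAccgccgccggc
PER3 D-box: gagcccgcgcgTTATGTAAcgcgccccggg
NR1D2 D-box: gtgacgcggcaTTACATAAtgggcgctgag
BMAL1 ROR element: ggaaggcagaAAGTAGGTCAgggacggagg

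The PER1 E-box began 173 bases before the start, and the pair in NR1D2 began 155 and 105 bases before the second of its annotated starts. PER1 (chr17:8152560-8152589, minus strand) and NR1D2 (chr3:23945954-23945983 and chr3:23946004-23946033, plus strand) were the 2 members with a CACGTG, against 12.7% of 9889 measured protein-coding genes with windows. The E′ box was in 5 members, against 7.82% of those genes. It lay 197 bases before the start of PER2 (chr2:238288790-238288819, minus strand), 187 before the second start of CLOCK (chr4:55546102-55546131, minus strand) and 188 before the second start of CRY2 (chr11:45847275-45847304, plus strand). The E′ boxes of CRY1 (chr12:107093621-107093650, minus strand) and NR1D1 (chr17:40100740-40100769, minus strand) lay 89 and 168 bases before the start. Coordinates are those of the printed bases. These shares are descriptions, and a match is not a bound site.

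A D-box was found in 3 members, against 1.70% of measured genes. That of PER2 began 3 bases before the start (chr2:238288595-238288624, minus strand), that of PER3 177 bases before it (chr1:7784103-7784132, plus strand) and that of NR1D2 194 bases before its second start (chr3:23945916-23945945, plus strand). BMAL1 alone held the ROR element (chr11:13277807-13277836, plus strand), starting at base 28 of the transcript from its first listed start, against 0.506% of measured genes. NR1D and ROR receptors act on BMAL1 through elements of this kind, and whether this match is bound was not tested. No member held the full CRE, against 3.89% of measured genes, and DBP held none of the 5 elements in its window. Over all 35116 windows of the table the shares were 7.26% for the E-box, 5.34% for the E′ box, 2.18% for the D-box, 0.476% for the ROR element and 1.85% for the CRE. The members with an E-box stood at 6.085 FPKM (PER1) and 16.6 (NR1D2), and DBP, with no element in its window, at 11.5. Those with an E′ box ran from PER2 at 2.71 to NR1D1 at 50.6. Bases outside the windows were not searched.

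The whole stretch of 250 bases before the PER1 start (chr17:8152405-8152654, minus strand, GRCh38.p14) is shown for the context of its E-box, in capitals. It had a G and C content of 67.2%.
PER1 upstream: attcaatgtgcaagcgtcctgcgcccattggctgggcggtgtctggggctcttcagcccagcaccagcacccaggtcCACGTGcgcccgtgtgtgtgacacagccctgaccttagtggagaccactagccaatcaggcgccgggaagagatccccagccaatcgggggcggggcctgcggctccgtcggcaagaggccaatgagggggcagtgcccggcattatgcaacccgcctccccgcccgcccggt

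**Figure D1:**
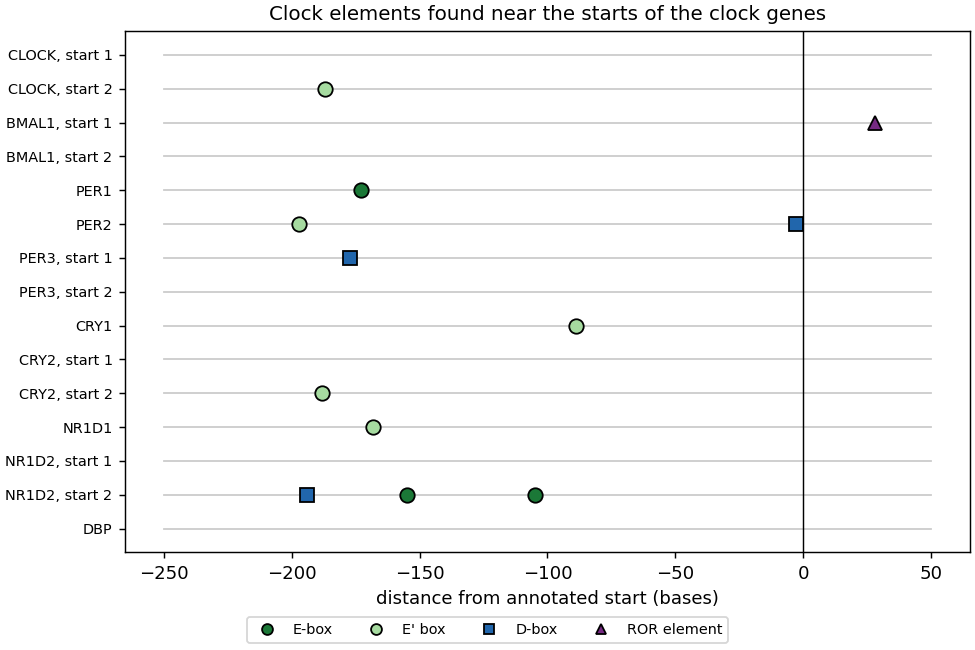
Position of each element found in the 15 windows of the 10 clock genes, in bases from the annotated start (0 on the horizontal axis); grey lines are the windows, and genes with 2 annotated starts have 2 lines. The E-boxes lie in PER1 and NR1D2, and the ROR element lies only in the first window of BMAL1.

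The fibroblast label was checked against markers. All 6 fibroblast markers were above the median gene, from FAP at 21.4 ± 1.81 to COL1A1 at 649 ± 48.1 FPKM (SD, n = 2). Of the 8 markers of other cell types, CDH1 (1.49 ± 0.0141) and the smooth muscle myosin MYH11 (3.0 ± 0.283) had values and the other 6 had none. The table lists only genes above some minimum, so a gene with no value is not known to be silent. Of 20056 RefSeq protein-coding genes, 59.8% had values. Here all genes means the genes with values, and the median gene, quartiles and percentiles refer to them. A low percentile is thus a low place among these genes only. The median gene stood at 11.7 FPKM and the quartiles at 6.295 and 22.2. Depth is unknown, since no counts were given, and the number of libraries limits the precision.

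Among the activators, CLOCK (ENSG00000134852) had 23.4 FPKM in library a and 23.7 in b, or 23.6 ± 0.198 (SD, n = 2). BMAL1 (ENSG00000133794) had 9.22 in library a and 8.12 in b, or 8.67 ± 0.778. CLOCK stood 2.02-fold above the median gene, at percentile 77.2 of all genes by mean FPKM, and BMAL1 at percentile 36.9. CLOCK therefore exceeded its partner 2.71-fold, with a log2 ratio of (FPKM + 0.1) of 1.34 in library a and 1.53 in b. The values of the 2 genes did not overlap.

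Of the repressors of the second loop, NR1D1 stood highest of all 10 genes, and NR1D2 stood next below CLOCK. NR1D1 (ENSG00000126368) had 47.5 FPKM in library a and 53.7 in b. Its mean, 50.6 ± 4.38, was 4.33-fold above the median gene (percentile 93.2), and it made up 36.8% of the summed FPKM of the 10 genes. NR1D2 (ENSG00000174738) had 17.6 in library a and 15.6 in b, with a mean of 16.6 ± 1.46 (percentile 64.4). The log2 ratio of NR1D1 over NR1D2 was 1.60 ± 0.251, a 3.04-fold difference, and both libraries of NR1D1 lay above both of NR1D2.

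The PER genes, whose proteins inhibit CLOCK and BMAL1 in the main loop, stood low. PER1 (ENSG00000179094) had 6.21 FPKM in library a and 5.96 in b, a mean of 6.085 ± 0.177 at percentile 24.0. PER3 (ENSG00000049246) had 5.91 in library a and 4.28 in b, with a mean of 5.095 ± 1.15 at percentile 19.0. PER2 (ENSG00000132326) was the lowest of the 10 genes, at 2.67 in library a and 2.75 in b. Its mean, 2.71 ± 0.0566, was 4.32-fold below the median gene (percentile 6.88). PER1 exceeded PER2 2.20-fold (log2 ratio 1.14 ± 0.0703), and PER2 stood 1.83-fold below PER3 (log2 ratio -0.87 ± 0.352). PER1 over PER3 gave a log2 ratio of 0.27 ± 0.282, which is smaller than its own SD, although it was positive in both libraries.

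The CRY genes encode the cryptochromes, which bind CLOCK and BMAL1 directly. CRY1 (ENSG00000008405) had 3.90 FPKM in library a and 2.72 in b, a mean of 3.31 ± 0.834 at percentile 9.80. CRY2 (ENSG00000121671) had 8.72 in library a and 9.85 in b, a mean of 9.285 ± 0.799 at percentile 39.8. CRY1 was 2.79-fold below CRY2 (log2 ratio -1.48 ± 0.480), and their values did not overlap. The output gene DBP (ENSG00000105516) had 10.0 in library a and 13.1 in b. Its mean of 11.5 ± 2.16 was close to the median gene, and library a lay below that median and library b above it.

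**Figure D2:**
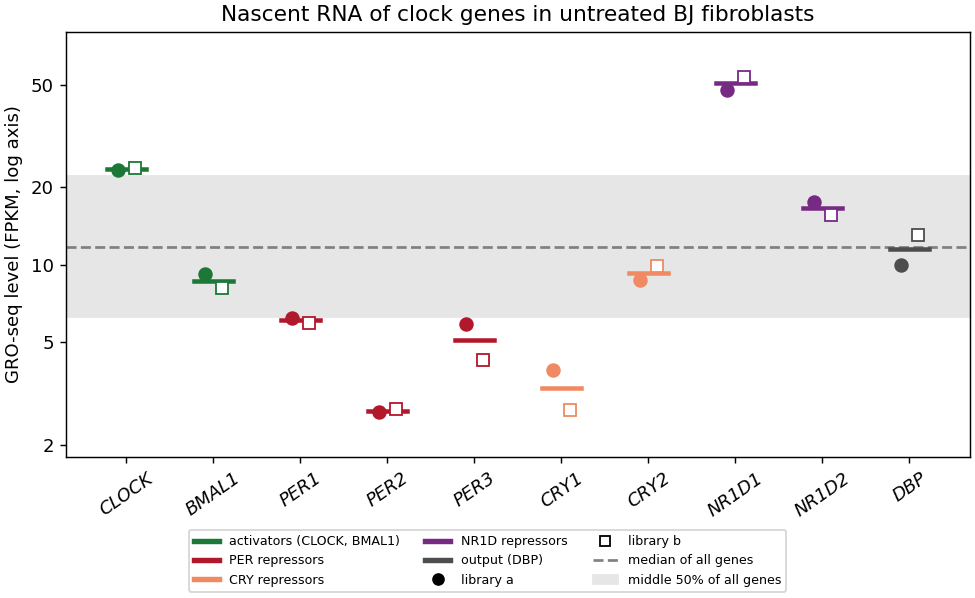
GRO-seq level of the 10 clock genes in FPKM (log axis) in library a (filled circles) and library b (open squares), with the mean of the 2 as a bar; the dashed line is the median of all genes, 11.7, and the grey band runs from 6.295 to 22.2. NR1D1 and CLOCK lie above the band, and PER1, PER3, CRY1 and PER2 below it.

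Of the 10 genes, 3 had a mean above the median gene (50% of all genes did), 2 lay above the upper quartile and 4 below the lower. The median of the 10 was 8.98 FPKM, or 76.7% of the median gene. They spanned 18.7-fold between PER2 and NR1D1. On the log2 scale the SD over the 10 genes was 1.28, while the SD over the 2 libraries within a gene was 0.192 (root mean square).

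The order of the means ran from NR1D1 through CLOCK, NR1D2, DBP, CRY2, BMAL1, PER1, PER3 and CRY1 to PER2. In 7 of the 9 steps both libraries of the higher gene lay above both of the lower. CRY2 and BMAL1 overlapped, with a difference of means of 1.07-fold, and so did CRY1 and PER2, with 1.20-fold. An SD from 2 values is itself uncertain, so each step was also set against the usual spread between libraries of the 500 genes nearest in level to each gene. The step from NR1D1 to CLOCK was 9.75 times the SD of a difference of means at that level and the step from CLOCK to NR1D2 was 4.04 times. The steps from DBP to CRY2 and from PER1 to PER3 were 1.92 and 1.47 times, and those from CRY2 to BMAL1 and from CRY1 to PER2 were 0.598 and 1.15 times, all under 2, so these neighbours do not differ beyond that spread.

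Activators were then set against repressors. The median of CLOCK and BMAL1 stood 2.33-fold above the median of the 7 repressors, a log2 difference of 1.22 ± 0.0168, with 1.23 in library a and 1.21 in b. This value joins 2 opposite ones. Against the 5 PER and CRY genes the activators were 2.81-fold higher (log2 difference 1.49 ± 0.265, with 1.30 in library a and 1.68 in b). Against NR1D1 and NR1D2 they were 2.02-fold lower (log2 difference -1.01 ± 0.0574, with -0.97 in library a and -1.05 in b). Each difference exceeded its SD over the libraries. No p-value is given, because the exact sign-flip test of 2 values cannot go below p = 0.5.

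The difference from all repressors depends on which genes are counted. With NPAS2 and BMAL2 (ARNTL2), the paralogs of CLOCK and BMAL1, added to the activators it came to 0.015. This is less than 0.0168, the SD of the difference without the paralogs. The differences from PER and CRY and from NR1D came to 0.28 and -2.22. With the repressors BHLHE40, BHLHE41 and CIART added to the 7 it came to 0.80. Leaving out members whose span overlaps a measured gene removed CLOCK, NR1D1 and NR1D2. That left BMAL1 alone against the PER and CRY genes, with a log2 difference of 0.77. For both activators against the same genes it was 1.49.

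By summed FPKM, which is a total per length over genes, the 2 activators came to 32.25 ± 0.580, against 93.7 ± 1.62 for the 7 repressors. The NR1D pair gave 67.2 ± 2.93 of that repressor sum, the 3 PER genes 13.9 ± 1.27 and the 2 CRY genes 12.6 ± 0.0354. Medians and sums thus put the activators on different sides of the repressors. The sums set 2 genes against 7, however, and so also count how many genes each list holds. The median of the repressors is the PER1 value in both libraries, whereas NR1D1 alone, at 50.6, exceeded the sum of the activators.

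Gene by gene, CLOCK stood above 6 of the 7 repressors and below NR1D1, without overlap in any of these pairs. Its widest margins were over PER2, at 8.43-fold (log2 ratio 3.08 ± 0.0170), and CRY1, at 7.05-fold (2.82 ± 0.369). Below NR1D1 it stood 2.14-fold (-1.10 ± 0.113). BMAL1 lay above 4 repressors, PER1, PER2, PER3 and CRY1, by 1.42-fold to 3.12-fold. It was below NR1D1 by 5.78-fold (-2.53 ± 0.253) and below NR1D2 by 1.90-fold (-0.93 ± 0.00197). The log2 ratio of BMAL1 over CRY2 was 0.080 in library a and -0.28 in b, so these genes could not be ordered.

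**Figure D3:**
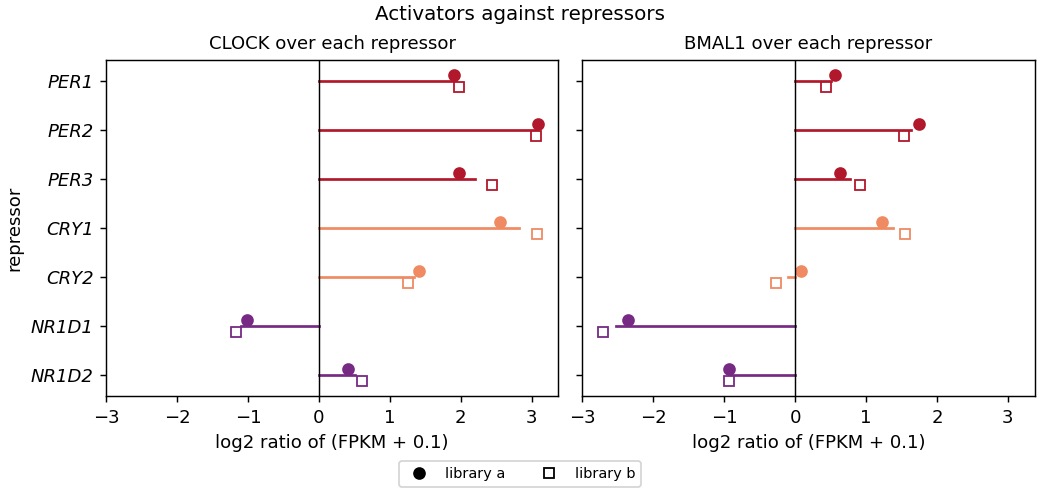
Log2 ratio of (FPKM + 0.1) of CLOCK (left) and BMAL1 (right) over each of the 7 repressors, in library a (filled circles) and library b (open squares); the line ends at the mean of the 2. CLOCK lies below only NR1D1, and BMAL1 lies below NR1D1 and NR1D2 and on both sides of 0 against CRY2.

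Some of these values may include reads of another gene. By RefSeq spans on GRCh38, 4 of the 10 genes overlapped a measured protein-coding gene, against 20.5% of 12000 measured protein-coding genes. They were NR1D1 with the thyroid hormone receptor gene THRA (15.2 ± 0.827 FPKM), CLOCK with TMEM165 (32.1 ± 1.39), NR1D2 with NKIRAS1 (6.295 ± 1.07) and DBP with the sphingosine kinase gene SPHK2 (21.5 ± 1.74). NR1D1 was above its partner in both libraries, at 47.5 FPKM against 15.75 in library a and 53.7 against 14.6 in library b, and NR1D2 was above NKIRAS1. CLOCK and DBP were below their partners in both libraries, CLOCK at 23.4 FPKM against 33.1 in library a and 23.7 against 31.1 in library b, and DBP at 10.0 against 22.75 in library a and 13.1 against 20.3 in library b. Whether the counting used strand is unknown here, and the part of shared reads in these values was not tested.

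The libraries were set against each other as log2 of (FPKM + 0.1) in library a over library b, less the median of all genes. In 3 of the 10 genes the higher library exceeded the lower by more than 25%, against 13.8% of all genes. CRY1 (1.40-fold) and PER3 (1.36-fold) were higher in library a, as were 7.22% of all genes by that much, and DBP (1.32-fold) was higher in library b, as were 6.57%. A typical gene at the level of CRY1 differed by 1.15-fold, at that of PER3 by 1.14-fold and at that of DBP by 1.09-fold. No member passed 1.5-fold, which 2.16% of all genes did. The members had no common direction, since 5 were higher in library a and 5 in b, with a median log2 difference of 0.0050.

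**Figure D4:**
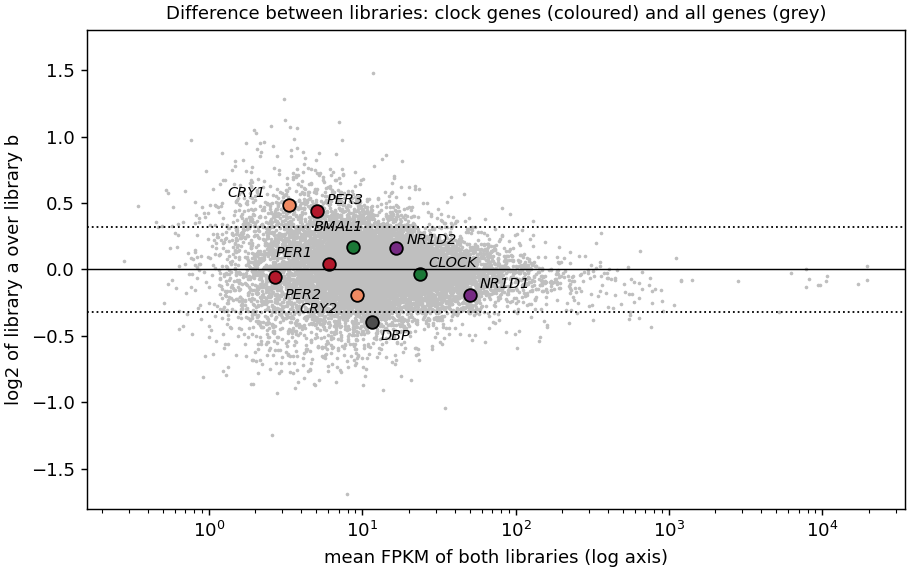
Log2 of library a over library b, less the median of all genes, against the mean FPKM (log axis) for all 12353 genes (grey) and the 10 clock genes (coloured by role); dotted lines mark a difference of 25%. CRY1 and PER3 lie above the upper line and DBP below the lower.

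Beyond the 10 genes, 9 lists of the clock network held 65 genes, of which 60 had values, against 59.8% of RefSeq protein-coding genes. Of the 60, 34 stood above the median gene, against 50% of all genes. This share of 50% also stands beside the counts given for each list below. The partners that share the roles of the activators were low. NPAS2, which can replace CLOCK, stood at 4.18 in library a and 4.55 in b. BMAL2 stood at 1.41 in library a and 1.77 in b. CLOCK exceeded NPAS2 5.31-fold and BMAL1 exceeded BMAL2 5.21-fold, pairs that were chosen after their values were seen, as were the next ones.

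RORA, an activator at the ROR element, was lower still. It stood at 1.01 FPKM in library a and 1.52 in b, at percentile 1.08 of the genes with values, and its relative RORB had no value. NR1D1, the repressor at the same element, exceeded RORA 37.8-fold (log2 ratio 5.24 ± 0.261) and NR1D2 exceeded it 12.4-fold (3.63 ± 0.512). With a pseudocount of 1 these log2 ratios came to 4.52 and 2.96.

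At the D-box, DBP shares its target sequence with the activators TEF and HLF and with the repressor NFIL3. TEF stood at 5.54 FPKM in library a and 4.46 in b, and NFIL3 at 5.76 in library a and 4.02 in b. HLF had no value. DBP exceeded TEF 2.27-fold (log2 ratio 1.18 ± 0.487) and NFIL3 2.35-fold (1.23 ± 0.629). Of the other E-box repressors, BHLHE40 (DEC1) had 29.6 in library a and 30.5 in b, CIART (CHRONO) 24.2 and 25.5 in the same order, and BHLHE41 (DEC2) 5.58 and 8.37. BHLHE40 stood 4.35-fold above BHLHE41, and both BHLHE40 and CIART were above the upper quartile.

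The kinases that phosphorylate PER, CRY and other clock proteins had a median of 21.0 FPKM over 9 of 10 genes, 6 of them above the median gene. CSNK1D (casein kinase 1 delta), a kinase of PER proteins, led with 81.8 ± 0.714, followed by CSNK1A1 (44.6 ± 0.368) and GSK3A (37.5 ± 1.51), and CSNK2A1 was lowest at 10.5 ± 1.16. CSNK1D stood 3.74-fold above its relative CSNK1E. Ubiquitin ligases and proteases had a median of 9.57 over 7 of 9 genes, 3 of them above the median gene. The highest were HUWE1 (25.05 ± 0.721), USP7, a protease known to stabilise CRY proteins (18.7 ± 0.240), and FBXW11, a relative of the PER ligase BTRC (12.5 ± 0.184). MYCBP2 was lowest at 8.03 ± 0.0707.

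Corepressors, coactivators and chromatin enzymes all had values, 19 of 19, with a median of 13.4 and 12 above the median gene. SFPQ (77.7 ± 1.99) and NONO (59.2 ± 3.42), RNA-binding partners of PER complexes, and the deacetylase gene HDAC1 (38.5 ± 3.68) were highest, and the acetyltransferase gene KAT2B lowest at 2.705 ± 0.00707. The 7 genes listed as regulated outputs had a median of 28.3, and 6 were above the median gene. The cell cycle inhibitor gene CDKN1A stood at 121 ± 5.78, the mitotic kinase gene WEE1 at 51.4 ± 0.184 and NOCT, which encodes nocturnin, at 30.4 ± 2.11, while NAMPT, an enzyme of NAD synthesis, was lowest at 7.905 ± 0.587. These outputs also answer to signals other than the clock.

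Genes that carry serum, cyclic AMP, glucocorticoid or heat signals to the PER genes had a median of 11.2, with 5 of 10 above the median gene. CRTC2, a coactivator of CREB, was highest at 25.8 ± 0.163, followed by SRF (17.1 ± 1.51) and MRTFA (14.5 ± 1.29), which act on serum response elements. SIK1, a kinase that restrains CRTC proteins, was lowest at 2.785 ± 0.106. Over the 9 lists, 5 of 60 genes differed by more than 25% between the libraries, against 13.8% of all genes. BMAL2, RORA and BHLHE41 were higher in library b, and NFIL3 and the ligase gene BTRC in library a.

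**Figure D5:**
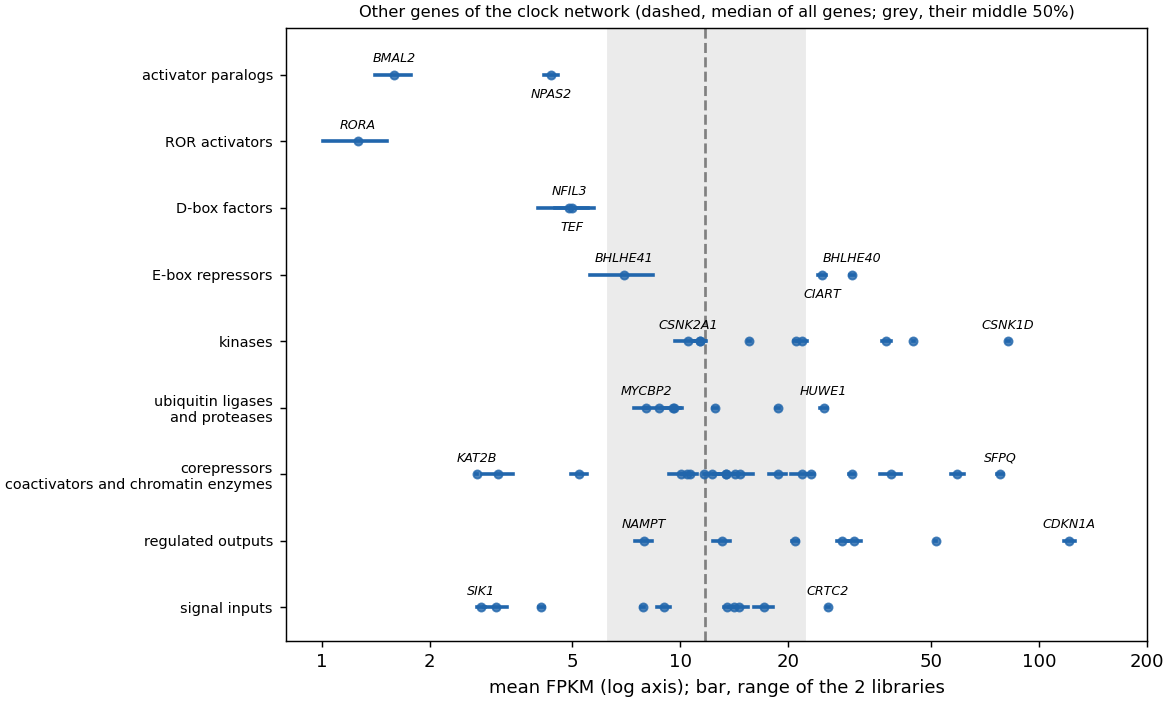
Mean FPKM (log axis) of the 60 measured genes of the 9 clock network lists, with the range of the 2 libraries as a bar; the dashed line is the median of all genes, 11.7, and the grey band their quartiles, 6.295 and 22.2. Names are given for all genes of lists of up to 3 and otherwise for the highest and the lowest, which run from RORA to CDKN1A.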

How the data were processed

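GRO-seq libraries came from 2 samples of untreated BJ cells, which form 1 group. The values are FPKM as deposited by the authors. The submitters' processing notes name Bowtie2, HTSeq and hg19. For the length, read total and strand setting behind the FPKM no source was at hand. The 2 columns, a and b, were assigned to the group alone, because the labels number the replicates. Identifiers were paired with symbols through an Ensembl name table (12202 of 12353 matched). Contrasts are differences between list medians of log2(FPKM + 0.1) within each library, given as mean and SD over libraries. No p-value was computed, since the exact test of 2 library values cannot go below p = 0.5. The search for elements, the contrasts and the difference between libraries were computed with Python 3.11.15, pandas 2.3.3 and numpy 2.4.6, and the contrast and fold calls were tested on simulated data. Promoter windows and gene spans are from RefSeq, GRCh38.p14, and no coordinates of the FPKM were taken from them. All members are named, all genes of lists of up to 5, and the 3 highest and the lowest of longer lists. Some genes of the wider lists are not reported here and do not enter their counts. The members and lists were chosen with earlier results of these data known. Alternatives were another pseudocount, list means, quantile normalization, a minimum of FPKM 1, other list members and each library alone.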

Additional observations from a re-analysis of the deposited data

How the results depend on the processing

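No alternative turned the sign of the 3 differences between list medians or means. With the paralogs added, however, the first was smaller than 0.0168, the SD of the difference without them. An SD with the paralogs was not computed, so the sign of that value is not clear. Summed FPKM, which also counts how many genes a list holds, put the activators below all repressors (32.25 against 93.7). For activators less all repressors, the log2 difference of 1.22 came to 1.12 with a pseudocount of 1 and to 0.82 with list means. It came to 0.015 with NPAS2 and BMAL2 added and to 0.80 with BHLHE40, BHLHE41 and CIART added. Without NR1D1, an alternative chosen after seeing the data, it came to 1.35. Each library alone gave 1.21 to 1.23. Without members overlapping a measured gene, only BMAL1 against the PER and CRY genes was left, at 0.77. The difference from PER and CRY came to 0.28 with the paralogs added and ran from 1.30 to 1.68 over the libraries. That from NR1D came to -2.22 with the paralogs added and ran from -1.05 to -0.97. It has no value without overlapping members, since both NR1D genes overlap another. The count of members above the median gene was 3 to 4 over the libraries. Of the 3 members that differed by more than 25% between libraries, 0 were left at a threshold of 1.5-fold. None of the 56 recomputed log2 ratios of the 14 pairs of related genes (6 planned and 8 chosen after their values were seen) changed sign. With the first listed start alone, 1 member in place of 2 held an E-box, 3 in place of 5 an E′ box and 2 in place of 3 a D-box, also chosen after seeing the data. The share of all genes was not computed for that setting, so these counts cannot be set against a background. No paired analysis was possible because there is 1 group. Depth is unknown, so no limit from counting can be given.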
